A study of Drosophila melanogaster with 15 samples.

Results

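The genes described here encode catalase (*Cat*), the superoxide dismutases *Sod1*, *Sod2* and *Sod3*, the peroxiredoxins *Prx2* and *Prx3*, and the immune-regulated catalase *Irc*. They were taken from the deposited expression table by gene symbol, and all 7 were present among its 12133 entries. All 7 also passed the filter for low values, which 9787 entries passed. The list was drawn up with the CPM levels of these genes across the 3 stages already known, and the genes therefore count as chosen by those levels, which are given with their changes as a description.

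Midguts of *w1118* larvae, a white-eyed *Drosophila* laboratory strain, were profiled by polyA mRNA-sequencing at 3 stages, with 5 biological replicates per stage and 15 libraries in all. Larvae fed on a diet of yeast alone were kept at 25 °C and dissected 2, 3 or 4 days after egg laying, stages named early L2, late L2 and early L3 here. One replicate pooled 60 midguts in early L2, 30 in late L2 or 10 in early L3. The labels give day 2 and day 3 as L2 and day 4 as L3, do not determine sex, and give no date or batch, and every library carries the same genotype and diet.

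Superoxide, a by-product of respiration and of oxidases, is converted to hydrogen peroxide by superoxide dismutases, and hydrogen peroxide is then broken down by catalase and by peroxiredoxins. Catalase resides mainly in peroxisomes, where acyl-CoA oxidases make hydrogen peroxide as they shorten fatty acids. Peroxiredoxins are thiol peroxidases that draw their electrons from thioredoxin. In the fly gut, hydrogen peroxide and other oxidants also arise from the dual oxidase Duox, and the secreted enzyme Irc is known for protecting the gut against them.

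Levels are in CPM, reads per gene relative to the total of the library, behind which stood 23981806 to 33902298 reads per library. Fold changes were estimated with limma on log2(CPM + 0.5), in 1 fit over the 15 libraries, and understate the change of genes at low levels. Calls required a Benjamini-Hochberg adjusted p under 0.05 over all 9787 entries together with a change of 0.5 or more, up or down, on the log2 scale. The verbs rose and fell are used for called genes. Values are means ± SD over n = 5 replicates unless stated otherwise. In these bulk samples, fewer cells of a type and less RNA per cell cannot be told apart.

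The libraries carried midgut transcripts. All 7 enterocyte markers listed were present, and they summed to 4770 to 6497 CPM at early L2, 7768 to 11095 CPM at late L2 and 10162 to 11671 CPM at early L3. The larval serum protein genes *Lsp1alpha*, *Lsp1beta*, *Lsp1gamma* and *Lsp2*, the 4 of 6 listed fat body markers found in the table, summed to 0.292 to 1.65 CPM at early L2, 2.76 to 247 CPM at late L2 and 45.0 to 273 CPM at early L3, with *Lsp1alpha* and *Lsp2* at 0 in every early L2 library. Late L2 replicate 4, at 247 CPM, stood apart from the other late L2 libraries, which reached at most 21.0 CPM. It also lay at -5.63 on the first principal component, which held 59.1% of the variance, against -24.58 to -16.62 for the other late L2 libraries. Early L3 replicate 1 lay at 31.61, against 45.12 to 59.40 for the other early L3 libraries. *LManV*, the 1 enterocyte marker that was called within L2, was at 2547 ± 478, 6934 ± 1248 and 8654 ± 629 CPM at the 3 stages in turn. The other 6 enterocyte markers summed to 2691 to 3192, 2240 to 2634 and 2123 to 2626 CPM, highest at early L2. The 9 enteroendocrine markers summed to 196 to 240, 136 to 175 and 135 to 139 CPM at the 3 stages in turn, and the 7 tracheal markers to 66.7 to 123, 79.2 to 170 and 41.4 to 61.4 CPM. The 11 muscle markers summed to 6376 to 9325, 5796 to 6924 and 5558 to 6387 CPM. The 7 hemocyte markers summed to 31.2 to 79.2, 16.7 to 38.9 and 12.0 to 48.6 CPM. Most of that sum was *Col4a1* and *vkg*, at 29.0 and 19.4 CPM in early L2. *Hml* and *NimC1*, near 0, went the other way, at 0.0772, 0.225 and 0.674 CPM and at 0.0550, 0.526 and 0.487 CPM. For early L3 against late L2, where 25.1% of all entries were called, *Act87E* (muscle), *Lsp1gamma*, *Hml* and 1 tracheal marker rose. In that comparison 5 tracheal markers, *NPF* and *Orcokinin* (enteroendocrine) and *Best2* (Malpighian tubule) fell. With edgeR and DESeq2, *Lsp1gamma*, *NPF* and *Orcokinin* were not called there. Within L2, where 9.89% were called (3.38% higher and 6.51% lower), *LManV*, *Lsp1gamma*, *NimC1* and *Gasp* (tracheal) rose. *Zasp52* (muscle), *vkg* and 7 of the 9 enteroendocrine markers (5 to 7 with single libraries left out) fell within L2. Of 4 Malpighian tubule markers, which summed to 127 to 150, 145 to 160 and 191 to 207 CPM, *Ptp52F* gave nearly all. The part of these cells in the results below was not tested.

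*Cat* rose in both intervals, *Prx2* fell into early L3, and *Irc*, at a far lower level, fell within L2 and rose into early L3. *Sod1*, *Sod2*, *Sod3* and *Prx3* were not called in any comparison. For late L2 against early L2, 1 of the 7 genes rose, 1 fell and 5 did not pass, where 9.89% of all entries were called (3.38% higher and 6.51% lower). For early L3 against late L2, 2 rose, 1 fell and 4 did not pass, where 25.1% of all entries were called (6.45% higher and 18.7% lower). For early L3 against early L2, 1 rose, 1 fell and 5 did not pass, where 34.2% of all entries were called (9.86% higher and 24.3% lower). For late L2 against early L2, the libraries did not overlap for 1 gene that was higher and 1 that was lower, where 18.4% of all entries did not overlap (9.73% higher and 8.68% lower). Between early L3 and late L2 these were 3 higher and 2 lower, where 40.0% of all entries did not overlap (11.7% higher and 28.3% lower). Between early L3 and early L2 they were 2 higher and 3 lower, where 48.4% did not overlap (16.2% higher and 32.2% lower). The genes were chosen with these values known, so nothing is read from these shares.

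**Figure D1:**
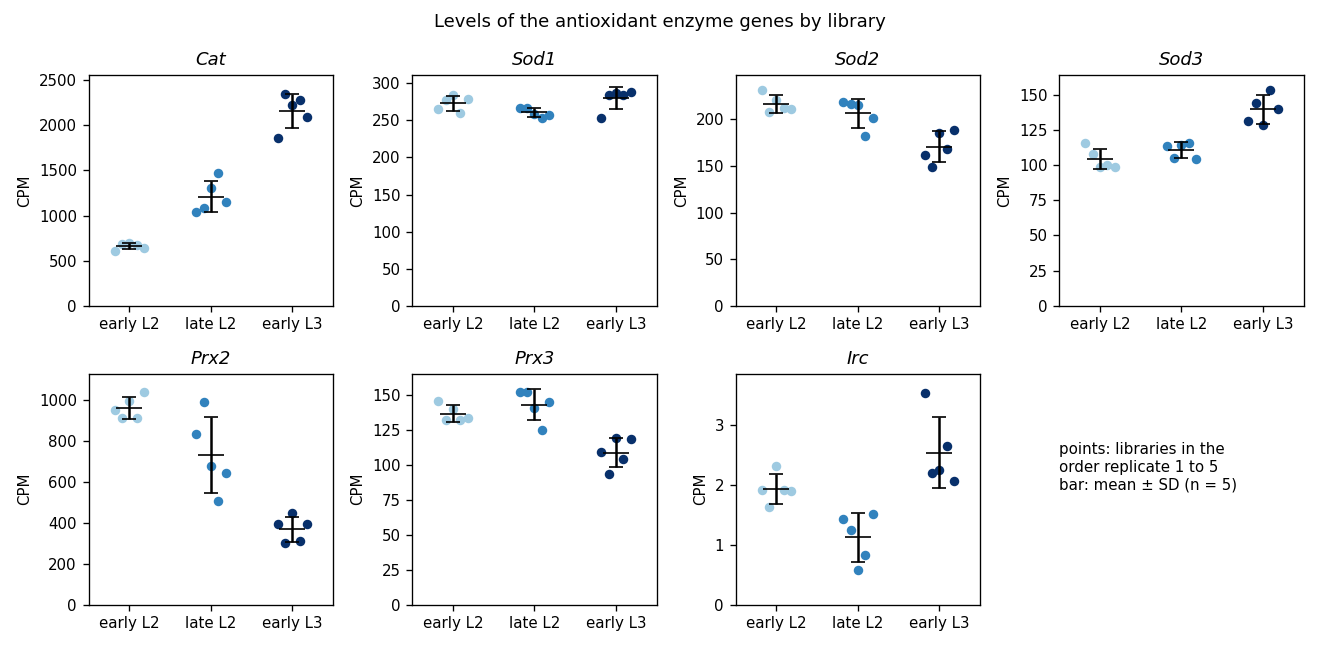
Level of each gene in CPM (vertical axes, linear and starting at 0) in midguts of each stage, from early L2 to early L3. Points are libraries and bars are mean ± SD (n = 5). *Cat* lies at 608 to 691, 1040.1 to 1468 and 1861 to 2342 CPM without overlap, *Prx2* is lowest in early L3 at 302 to 445 CPM, and *Irc* is lowest in late L2 at 0.578 to 1.52 CPM.

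*Cat* (FBgn0000261) lies on the plus strand of chromosome 3L at 18822604-18828188 in BDGP6.54, with 1993 exon bases in 3 exons. Its level was 608, 684, 691, 677 and 637 CPM in early L2 replicates 1 to 5. It was 1040.1, 1086, 1303, 1468 and 1151 CPM in late L2, and 1861, 2342, 2229, 2277 and 2092 CPM in early L3. Every late L2 library was above every early L2 library, and every early L3 library was above every late L2 library. *Cat* averaged 1209.7 ± 175 CPM in late L2 and 659 ± 35.5 CPM in early L2, a log2 fold change of 0.86 (standard error 0.088, 95% interval 0.68 to 1.05). It averaged 2160.2 ± 191 CPM in early L3, a log2 fold change of 0.84 over late L2 (95% interval 0.66 to 1.03). Over both intervals the level was 3.27-fold higher in early L3 than in early L2. The 2 steps differed by -0.02 on the log2 scale, with a 95% interval of -0.35 to 0.30, so steps of unequal size within that range were not distinguished.

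The highest *Cat* level of late L2, 1468 CPM, was that of replicate 4, the late L2 library with the highest fat body marker sum. Without it the log2 fold change was 0.79 for late L2 against early L2 and 0.92 for early L3 against late L2, and *Cat* was called in both. The fat body marker sums in late L2 replicates 1 to 5 were 3.31, 7.14, 2.76, 247 and 21.0 CPM, beside *Cat* at 1040.1, 1086, 1303, 1468 and 1151 CPM. In early L3 replicates 1 to 5 they were 273, 255, 60.4, 201 and 45.0 CPM, beside *Cat* at 1861, 2342, 2229, 2277 and 2092 CPM. The median marker sums were 0.746, 7.14 and 201 CPM at the 3 stages in turn. More fat body and a higher level of these genes per cell at later stages cannot be told apart. The part of fat body in these levels was not tested.

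*Irc* (FBgn0038465), on chromosome 3R at 17002875-17007208 (plus strand), encodes a secreted peroxidase-fold protein with catalase activity. It was the lowest of the 7 genes, with 17 to 107 reads per library. Its level was 1.92, 1.63, 2.32, 1.92 and 1.89 CPM in early L2 replicates 1 to 5, then 1.43, 1.25, 0.578, 0.825 and 1.52 CPM in late L2, and 3.53, 2.19, 2.25, 2.65 and 2.06 CPM in early L3. All late L2 libraries were below all libraries of the other stages, while early L3 and early L2 overlapped. The mean was 1.12 ± 0.405 CPM in late L2 and 1.93 ± 0.248 CPM in early L2 (log2 fold change -0.62, 95% interval -0.99 to -0.25). It was 2.54 ± 0.596 CPM in early L3, a log2 fold change of 0.93 over late L2 (95% interval 0.56 to 1.29) and 0.31 over early L2, which did not pass. With edgeR (0.54), DESeq2 (0.54) and quantile normalization (0.65) that last change was called. *Irc* was the 1 gene of the 7 for which the difference between the steps was called, at 1.55 (95% interval 0.91 to 2.18), where 24.9% of all entries were called (6.50% positive and 18.4% negative). The fall within L2 was not called without late L2 replicate 3 (-0.48) or with a pseudocount of 1 (-0.49) or 4 (-0.22), and the rise into early L3 was not called with a pseudocount of 4 (0.35).

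*Prx2* (FBgn0040309), on chromosome X at 13329824-13331994 (plus strand), encodes a cytosolic peroxiredoxin, also known as Jafrac1. Its level was 953, 911, 992, 909 and 1037 CPM in early L2 replicates 1 to 5. In late L2 the libraries spread widely, at 831, 988, 679, 505 and 640.2 CPM, a coefficient of variation of 25.5% that was second to that of *Irc* among the 7 genes. In early L3 it was 392, 302, 445, 308 and 391 CPM. All early L3 libraries were below all libraries of the other stages, while late L2 replicate 2 lay within the range of early L2. *Prx2* averaged 729 ± 186 CPM in late L2 and 961 ± 54.7 CPM in early L2, a log2 fold change of -0.43 (95% interval -0.75 to -0.12), under the minimum for a call. Without late L2 replicate 2 this value was -0.55 and was called. In early L3 the mean was 367 ± 61.2 CPM, a log2 fold change of -0.97 against late L2 (95% interval -1.28 to -0.65) and -1.40 against early L2. The lowest late L2 level, 505 CPM, was again that of replicate 4, and without it the log2 fold change for early L3 against late L2 was -1.09. The steps differed by -0.53 (95% interval -1.08 to 0.02), which was not called, and by -0.78 without late L2 replicate 4, which was.

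**Figure D2:**
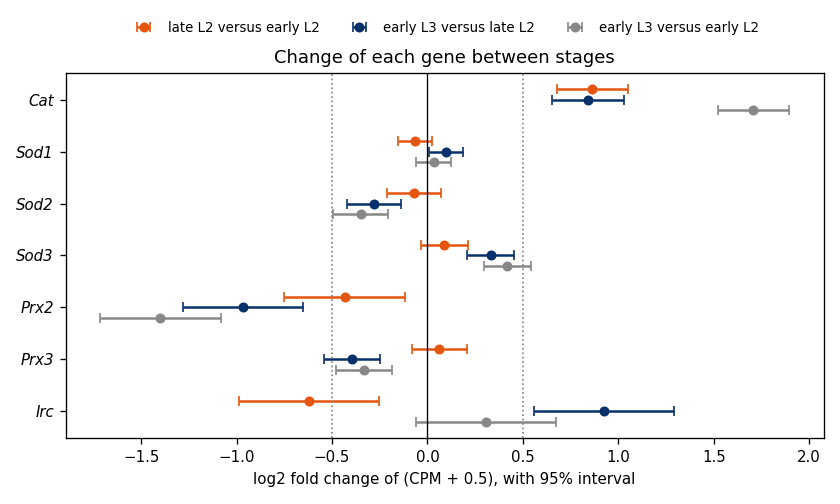
Log2 fold change of (CPM + 0.5) on the horizontal axis for each gene (rows), from limma, with 95% intervals, in late L2 versus early L2 (orange), early L3 versus late L2 (dark blue) and early L3 versus early L2 (grey). Dotted lines mark the minimum of 0.5 in size for a call. *Cat* lies above it in all 3 comparisons, *Prx2* lies below it at -0.97 and -1.40 into early L3, and *Irc* lies on opposite sides at -0.62 and 0.93.

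*Prx3* (FBgn0038519, chromosome 3R at 17545222-17546531, minus strand) encodes the mitochondrial peroxiredoxin. It lay between 132.3 and 145.7 CPM at early L2, 125 and 152.5 CPM at late L2, and 93.7 and 119 CPM at early L3. The early L3 libraries were all below those of both other stages, whose ranges overlapped. The log2 fold change was -0.40 for early L3 against late L2 (109 ± 10.7 CPM against 143 ± 11.3 CPM, 95% interval -0.54 to -0.25), short of the minimum for a call. Late L2 against early L2 gave 0.06 (95% interval -0.08 to 0.21). The steps differed by -0.46, which was not called, and by -0.55 without late L2 replicate 4, which was. The ratio of *Prx2* to *Prx3* within a library, which does not depend on the library total, was 7.03 ± 0.455 at early L2, 5.04 ± 0.960 at late L2 and 3.36 ± 0.306 at early L3.

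*Sod1* (FBgn0003462, chromosome 3L at 11112281-11113740, minus strand) encodes the copper and zinc enzyme of the cytosol. Its stage means lay closest together of the 7 genes, and its libraries lay between 260 and 284 CPM at early L2, 253 and 267 CPM at late L2, and 253 and 289 CPM at early L3. The ranges of the 3 stages overlapped, and log2 fold changes were -0.07 for late L2 against early L2 (95% interval -0.16 to 0.02), 0.10 for early L3 against late L2 (95% interval 0.01 to 0.19) and 0.03 for early L3 against early L2 (95% interval -0.06 to 0.12). These intervals leave room for changes of up to about 0.2 on the log2 scale.

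*Sod2* (FBgn0010213, chromosome 2R at 16772785-16773915, minus strand) encodes the manganese enzyme of mitochondria. It lay between 208 and 232 CPM at early L2, 182 and 219 CPM at late L2, and 149 and 189 CPM at early L3. Early L3 libraries were all below early L2 libraries and overlapped late L2. The log2 fold change was -0.07 for late L2 against early L2 (95% interval -0.21 to 0.07) and -0.28 for early L3 against late L2 (95% interval -0.42 to -0.14), and neither was called. The ratio of *Sod2* to *Sod1* was 0.795 ± 0.0520 at early L2, 0.792 ± 0.0449 at late L2 and 0.610 ± 0.0543 at early L3.

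*Sod3* (FBgn0033631, chromosome 2R at 11380347-11384114, minus strand) encodes the extracellular enzyme. It lay between 98.7 and 115 CPM at early L2, 104 and 116 CPM at late L2, and 128 and 154 CPM at early L3. All early L3 libraries were above those of both other stages. The log2 fold change was 0.09 for late L2 against early L2 (95% interval -0.04 to 0.21), 0.33 for early L3 against late L2 (95% interval 0.21 to 0.45) and 0.42 for early L3 against early L2 (95% interval 0.30 to 0.54). None was called with CPM as deposited, whereas the value for early L3 against early L2 was called when libraries were scaled by median ratios (0.57), with edgeR (0.58) and with DESeq2 (0.57).

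CPM are relative to the library, and the median log2 fold change of all entries was 0.01, -0.11 and -0.15 in the 3 comparisons, the last 2 being those of early L3 against late L2 and against early L2. With median-ratio scaling it was 0.02, 0.02 and -0.01. Relative to that shift *Prx3*, *Sod2* and *Prx2* lay closer to 0 in early L3 and *Cat*, *Sod1*, *Sod3* and *Irc* farther above it. For early L3 against late L2, CPM called 631 entries higher and 1829 lower, against 975 and 1279 with median-ratio scaling and 1047 and 1150 after quantile normalization. *Cat* was called at 0.99 and 0.79 under those scalings, and *Prx2* at -0.82 and -1.01.

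Levels of different genes were compared per kb of exon. In early L2, *Prx2* was highest at 656 CPM per kb, followed by *Sod1* at 372, *Cat* at 331, *Sod2* at 214, *Prx3* at 135, *Sod3* at 51.6 and *Irc* at 0.809 CPM per kb. In early L3, *Cat* was highest at 1084 CPM per kb, followed by *Sod1* at 380.4, *Prx2* at 251, *Sod2* at 168, *Prx3* at 107, *Sod3* at 69.2 and *Irc* at 1.06 CPM per kb. Neighbours in these orders did not overlap between libraries in either stage. In late L2 the order was *Cat* (607), *Prx2* (498), *Sod1* (355), *Sod2* (204), *Prx3* (141), *Sod3* (54.9) and *Irc* (0.469 CPM per kb), and the libraries of *Cat* overlapped those of *Prx2*, as those of *Prx2* overlapped those of *Sod1*. Among 9750 genes with an exon length, *Cat* ranked 323, 207 and 115 per kb at the 3 stages in turn, and *Prx2* ranked 192, 248 and 418. *Sod1* ranked 297, 316 and 315, and *Irc* ranked 8018, 8400 and 7529.

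The 7 genes took 0.235% ± 0.00578 of all reads at early L2, 0.266% ± 0.0116 at late L2 and 0.323% ± 0.0188 at early L3. Of these reads, *Cat* held 28.0%, 45.5% and 66.8% and *Prx2* held 40.8%, 27.3% and 11.4%. Within a library the ratio of *Cat* to *Prx2* was 0.689 ± 0.0614 at early L2, 1.79 ± 0.712 at late L2 and 6.05 ± 1.41 at early L3, and the 3 ranges did not overlap. The ratio of *Cat* to *Sod1* was 2.42 ± 0.132, 4.65 ± 0.782 and 7.72 ± 0.422, also without overlap.

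**Figure D3:**
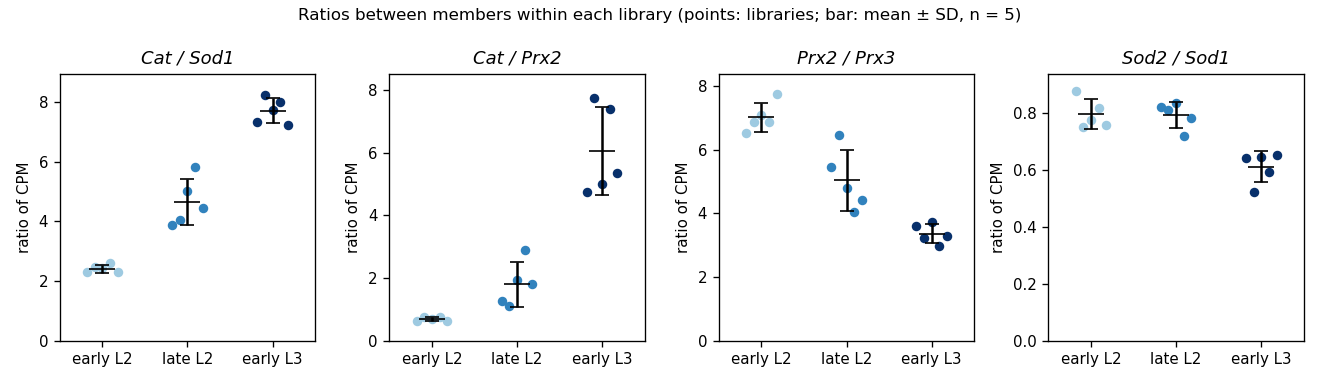
Ratios of CPM between pairs of genes within each library (vertical axes, linear and starting at 0) at each stage, from early L2 to early L3. Points are libraries and bars are mean ± SD (n = 5). *Cat* over *Prx2* averages 0.689, 1.79 and 6.05, *Prx2* over *Prx3* averages 7.03, 5.04 and 3.36, and *Sod2* over *Sod1* is lowest in early L3 at 0.610.

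The genes with the most similar pattern were found by Pearson correlation of log2(CPM + 0.5) over the 15 libraries, among 6835 genes averaging 5 CPM or more. The 3 stages separate in these libraries, so the coefficients mostly describe the order of the stages, and no p-value is given. *Cat* was most like *fabp* (r = 0.996), which encodes a fatty acid binding protein, then *CG18179* (0.995) and *CG32407* (0.994). *fabp* averaged 666, 1366 and 2772 CPM at the 3 stages in turn. *Prx2* was most like *Rack1* (0.991), which encodes a ribosome-associated scaffold, the ribosomal protein gene *RpL3* (0.989) and the lipoic acid synthase gene *Las* (0.987). *Rack1* averaged 2271, 1993 and 1451 CPM in the 3 stages.

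*Sod2* was most like *ND-51* (0.980), *ATPsyngamma* (0.979) and *ND-B12* (0.977), which encode subunits of respiratory complex I and of the ATP synthase. *Prx3* was most like *mRpS9* (0.987), a mitochondrial ribosomal protein gene, *ATPsynbeta* (0.982) and *l(2)k14505* (0.980). *Sod3* was most like *Pal1* (0.951), *Npc2f* (0.950) and *CG15773* (0.948). The closest coefficients were lower for *Sod1*, with *Idh* (0.849), *CG4830* (0.777) and *Desat1* (0.764), and for *Irc*, with *CG7497* (0.892), *Jhbp7* (0.885) and *Bcat* (0.877).

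Other genes of these pathways were counted next. Over 5 lists of peroxiredoxin relatives, thioredoxin, glutathione, oxidase and regulatory genes, 57 of 68 listed genes were tested. For late L2 against early L2, 2 rose, 1 fell and 54 did not pass, where 9.89% of all entries were called (3.38% higher and 6.51% lower). For early L3 against late L2, 6 rose, 6 fell and 45 did not pass, where 25.1% of all entries were called (6.45% higher and 18.7% lower). The same shares of all entries apply to every list counted below, and nothing is read from the counts. Of 9 other peroxiredoxin and superoxide dismutase relatives, 0 were called within L2 by limma, edgeR or DESeq2, with 3 at an unadjusted p under 0.05, and 1 rose and 8 did not pass for early L3 against late L2, with a median log2 fold change of 0.08 against -0.11 over all entries. The 1 that rose was *Srx*, sulfiredoxin, which restores overoxidised peroxiredoxins. It averaged 94.9 ± 22.2 CPM in early L3 and 38.7 ± 4.83 CPM in late L2 (log2 fold change 1.26, limma adjusted p = 9.94e-07). The highest of the list, *Prx6c*, averaged 150.2 ± 26.8 CPM in early L3 and 129.9 ± 17.7 CPM in late L2 and did not pass, and its reads can be split with near-identical copies. One of these, *Prx6b*, was called for early L3 against late L2 without early L3 replicate 1 (0.51, against 0.40 with it), with edgeR (0.69) and with DESeq2 (0.70), so that these tools gave 2 calls in place of 1.

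Of 12 thioredoxin and methionine repair genes, 1 rose within L2, and for early L3 against late L2 there were 2 that rose and 2 that fell. *Sesn*, sestrin, averaged 63.5 ± 13.6 CPM in late L2 and 40.4 ± 8.73 CPM in early L2 (log2 fold change 0.65, limma adjusted p = 0.00555). *Trx-2*, the main cytosolic thioredoxin, averaged 135 ± 9.12 CPM in early L3 and 209 ± 16.1 CPM in late L2 (log2 fold change -0.63, limma adjusted p = 1.85e-06). *Trx-2* was not called with edgeR (-0.50) or DESeq2 (-0.48), which each called 3 of the 12 genes for early L3 against late L2 in place of 4. *Pdi* and *CaBP1*, which encode disulfide isomerases of the endoplasmic reticulum, were 0.60 and 0.74 higher on the log2 scale in early L3, and *Pdi* was the highest of the list at 2294 ± 201 CPM. *MsrA*, methionine sulfoxide reductase, fell by 1.19 on that scale. *MsrA* and *Prx6b*, *Idh*, *Hsp70Aa*, *Keap1*, *maf-S*, *cnc*, *Pex2*, *Cyt-c-p* and *Ucp4A* are named outside the rule for named genes, after their values were seen.

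Of 14 glutathione and NADPH genes, 0 were called within L2 by limma, edgeR or DESeq2, with 8 at an unadjusted p under 0.05, and for early L3 against late L2 there was 1 that rose and 1 that fell. *Men*, malic enzyme, averaged 578 ± 124 CPM in early L3 and 274 ± 28.3 CPM in late L2 (log2 fold change 1.05, limma adjusted p = 8.92e-06). *GstS1* averaged 381 ± 52.7 CPM in early L3 and 543 ± 59.3 CPM in late L2 (log2 fold change -0.52), a call lost without late L2 replicate 1 (-0.50) or 3 (-0.48) or early L3 replicate 2 (-0.44) or 4 (-0.48), with edgeR (-0.38) and with DESeq2 (-0.36). Those tools called *Idh*, isocitrate dehydrogenase, instead (0.56 and 0.58, against 0.42 by limma). *GstD1*, the highest of the list, had 1872 ± 270.3 CPM in early L3 and 1506 ± 228 CPM in late L2 and did not pass.

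A list of heme peroxidases, NADPH oxidases and phenoloxidases held 7 tested genes, of which 1 rose and 1 fell within L2, and 1 rose and 2 fell for early L3 against late L2. With edgeR and with DESeq2 the calls within L2 were 1 in place of 2, and those for early L3 against late L2 were 4 in place of 3. The NADPH oxidase gene *Nox* had the highest mean over all 15 libraries, 7.60 CPM, with 6.59 ± 1.01 CPM in early L3 and 7.50 ± 1.29 CPM in late L2. *Duox* averaged 2.28 ± 0.487 CPM in early L3 and 3.95 ± 0.652 CPM in late L2 (log2 fold change -0.68, limma adjusted p = 0.000256). *mol*, which encodes the maturation factor of Duox, averaged 2.20 ± 0.564, 1.10 ± 0.342 and 2.03 ± 0.274 CPM at the 3 stages in turn, falling by 0.76 and then rising by 0.68 on the log2 scale. *cysu*, a heme peroxidase gene, was at 2.65 ± 1.67, 7.71 ± 2.58 and 0.511 ± 0.773 CPM at the 3 stages in turn. Its log2 fold changes were 1.54 within L2 and -3.21 into early L3. The first was not called without early L2 replicate 4 (1.27), with edgeR (1.57) or with DESeq2 (1.55).

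Among 15 stress regulators tested, 0 were called within L2 by limma, edgeR or DESeq2, with 6 at an unadjusted p under 0.05, and for early L3 against late L2 there was 1 that rose and 1 that fell. *cnc*, the Nrf2 homologue that drives antioxidant genes, had 253 ± 21.1 CPM in early L3 and 243 ± 15.9 CPM in late L2 (log2 fold change 0.06, standard error 0.064) and did not pass, as did its repressor *Keap1* and its partner *maf-S*. Within L2, leaving out 1 library gave 1 call in 3 cases, *Hsp70Aa* without late L2 replicate 4 (-1.54), *Keap1* without early L2 replicate 2 (-0.51) and *p38c* without early L2 replicate 5 (0.64). For early L3 against late L2, edgeR and DESeq2 gave 3 calls in place of 2. The added call was *Hsp70Aa* (-7.59 and -22.0), at 0 CPM in every early L3 library. Its late L2 level came from 1 library, at 4.06 CPM. *p38c*, a stress kinase gene, averaged 27.1 ± 1.39 CPM in early L3 and 8.41 ± 3.10 CPM in late L2 (log2 fold change 1.70, limma adjusted p = 1.41e-05). *srl*, the PGC-1 homologue, averaged 27.3 ± 6.58 CPM in early L3 and 84.0 ± 14.5 CPM in late L2 (log2 fold change -1.62). *crc*, the ATF4 homologue, was the highest of the list at 347 ± 11.9 CPM in early L3 and 344 ± 6.42 CPM in late L2.

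Genes of the peroxisome, the organelle of catalase, were counted in 2 lists. Of 14 assembly genes (peroxins) tested, 1 rose and 13 did not pass in each interval, with median log2 fold changes of 0.20 for late L2 against early L2 and 0.13 for early L3 against late L2, where the medians of all entries were 0.01 and -0.11. *Pex13*, part of the import machinery, averaged 54.6 ± 4.95, 82.4 ± 2.91 and 122.0 ± 11.8 CPM at the 3 stages in turn, and its log2 fold changes were 0.59 and 0.56. *Pex19*, the highest of the list, had 125 ± 7.93 CPM in early L3 and 157 ± 7.68 CPM in late L2 and did not pass. *Pex2*, at -0.50 into early L3, was just short of the minimum and was called without late L2 replicate 1, 3 or 4 or early L3 replicate 1 or 3 (-0.55 to -0.50). The second list held 10 genes listed as peroxisomal or other oxidases, and whether each forms hydrogen peroxide was not tested. Of these, 1 rose and 9 did not pass within L2, and 2 rose, 1 fell and 7 did not pass into early L3. *Acox57D-p*, an acyl-CoA oxidase gene, had 183 ± 39.1 CPM in early L3 and 90.1 ± 8.03 CPM in late L2 (log2 fold change 1.00). *CG9512* was the highest of the list, at 745 ± 40.9, 1207 ± 101 and 1763 ± 196 CPM at the 3 stages in turn, and rose in both intervals (0.69 and 0.54), while *CG4586* fell by 1.47 on the log2 scale into early L3.

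**Figure D4:**
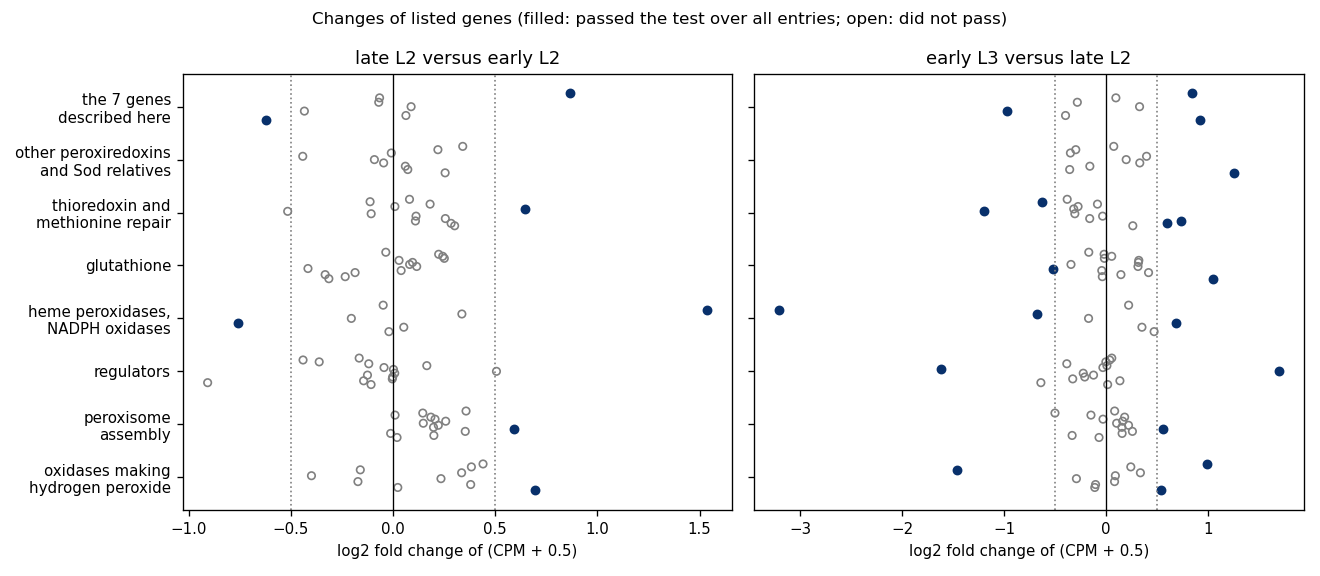
Log2 fold change of (CPM + 0.5) on the horizontal axes for the 7 genes and for the genes of 7 related lists (rows), in late L2 versus early L2 (left) and early L3 versus late L2 (right). Each point is a gene, filled where it was called over all 9787 entries and open where it was not. Dotted lines mark 0.5 in size. Of the 57 genes in the 5 redox lists, 3 are filled on the left and 12 on the right, where 9.89% and 25.1% of all entries were called.

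The mitochondrial genes listed beside *Sod2* and *Prx3*, 7 of which were tested, held 0 called genes in either interval by limma, with 1 at an unadjusted p under 0.05 within L2 and 7 into early L3. By edgeR and by DESeq2 there were 0 within L2 and 1 into early L3. That 1 was *Ucp4A*, which was higher in early L3 (0.51 and 0.53, against 0.38 by limma). *Cyt-c-p*, cytochrome c, was at -0.48 into early L3 and was called without late L2 replicate 3 or 4 or early L3 replicate 1, 3 or 5 (-0.55 to -0.50). Their median log2 fold change was -0.02 for late L2 against early L2 and -0.27 for early L3 against late L2. The highest, *mAcon1*, which encodes the superoxide-sensitive enzyme aconitase, had 935 ± 74.8 CPM in early L3 and 1164 ± 83.0 CPM in late L2, a log2 fold change of -0.32.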

How the data were processed

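The authors deposited CPM, reads per gene relative to the total of the library, for 12133 entries, 926 of them transposable elements. According to the submitters' notes the build was BDGP6 and the tools included STAR 2.7.10a and Salmon 1.5.2 beside Trim Galore 0.6.7, Picard, FastQC, DESeq2 and MultiQC 1.11, with no role given for each. Libraries were made with a stranded kit. A second deposited table holds the authors' log2 fold changes and adjusted p-values and was not used. Columns were matched to samples by name, and 0 columns were left over. Reads were recovered from the CPM steps, and 100% of 166854 values above 0 came out whole within 0.001.

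The 9787 entries reaching 0.5 CPM in 1 or more libraries were tested with limma 3.58.1 in R 4.3.3, with an intensity trend, on log2(CPM + 0.5), and p-values were Benjamini-Hochberg adjusted within each contrast. Replicates are labelled as biological, and each pooled several midguts. The p-values set stage differences against the spread between these pools, not between single animals. The members and the gene lists were chosen with earlier results of these data known. All members are named. From each list are named the called genes and the gene with the highest mean. Of the called genes, at most the 3 with the smallest adjusted p per contrast are named. Marker lists are given as sums or counts, with some of their genes named. For each member the 3 most correlated genes are named. Positions and exon lengths came from the Ensembl 115 annotation of BDGP6.54, with 12094 identifiers matched. No other annotated gene overlapped a member. Sequences were not used here, and 1 gene of the oxidase list is not reported here and is left out of that list's counts.

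The replicate numbers were checked, and a pairing of the libraries by number was not shown. Alternatives were other pseudocounts, filters and scalings, a replicate block, no intensity trend, no minimum fold change, edgeR 4.0.16 and DESeq2 1.42.0 on the recovered reads, and each library left out. On simulated data for 9787 genes the test recovered 85.6% of 90 genes given a log2 change of 1 for late L2 against early L2, with 1 false call. For early L3 against late L2 it recovered 92.5% of 107 such genes, with 8 false calls. The changed genes averaged at least 1 CPM and went up or down at random, without the shift of the median in early L3.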

Additional observations from a re-analysis of the deposited data

Results flagged for a closer look

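Early L3 replicate 1 lay apart from the other 4 early L3 libraries in *Sod1*, at 253 CPM where the others were above it. The gap to the nearest library was 0.875 of the group's range, above Dixon's critical value of 0.71 for 5 samples. It was the 1 group of 33 checked that passed, where chance would give about 1 in 20. The 2 steps of *Irc* differed by 1.55 on the log2 scale by the interaction contrast, with the change into early L3 positive and that within L2 negative.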

How the results depend on the processing

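Over 28 alternatives, 761 of 784 fold changes of the 7 genes kept their direction and their side of the call rule or were uncalled on both sides, 19 became called and 4 were no longer called. These are not independent checks. Leaving out a library of the stage outside a comparison cannot change its fold change. The replicate block, no intensity trend and no minimum fold change also keep the main fold changes. The sign changed in 10 values, each uncalled. For late L2 against early L2, the 2 calls (*Cat* and *Irc*) became 1 with a pseudocount of 1 or 4, and 1 to 3 when single libraries were left out, 1 without late L2 replicate 3 and 3 without late L2 replicate 2. Between early L3 and late L2, the 3 calls became 2 with a pseudocount of 4 and 6 with no minimum fold change, and stayed 3 when single libraries were left out. Between early L3 and early L2, the 2 calls became 4 with edgeR, 4 with DESeq2 and 5 with no minimum fold change. They became 3 with median-ratio scaling (*Sod3* added) and 3 with quantile normalization (*Irc* added), and stayed 2 when single libraries were left out. For the difference between steps, the 1 call became 2 with no minimum fold change, 1 to 3 when single libraries were left out, and 3 when late L2 replicate 4 and early L3 replicate 1 were both left out.

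With the replicate number as a block the 7 genes gave 2, 3, 2 and 1 calls in the 4 contrasts, and 0 of 28 calls changed. Same-numbered libraries correlated weakly in their deviations (r = -0.18 to 0.21 across genes, 4 of 15 pairs over 0.1). The median r was 0.034 for the same number and -0.008 for other numbers, and 5 of 15 libraries were closest to their own number. The labels do not say what a number shares, so pairing was neither shown nor excluded, and the numbers were not taken as pairing.

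Over all entries, 968, 2460 and 3343 were called in the 3 comparisons, against 506, 1598 and 2220 with a pseudocount of 4, and 2597, 5288 and 6361 with no minimum fold change. *Irc* is limited by depth at 17 to 107 reads per library. The cause of these differences was not tested.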
